A study of Mus musculus with 12 samples.

Results

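In ovarian granulosa cells of the mouse, 65 probe sets had lower values after gonadotropin treatment in cumulus cells and in mural cells alike. They were chosen by their measured values: the mean log2 value had to be lower by at least 1 (at least 2-fold) in eCG-treated than in unprimed mice in cumulus cells and again in mural cells, and the highest of the 4 group means had to reach 8. Rows with the same value on all 12 arrays counted once, which left 27365 distinct probe sets of 41115 named by an Ensembl mouse transcript, and the 65 members covered 97 of those rows. Per the labels, all mice were B6SJLF1 animals aged 22 days. Treated mice were injected with equine chorionic gonadotropin (eCG, the PMSG of the labels) at 5 IU, 44 hours before their cells were taken, and unprimed mice were not. The groups were cumulus cells of eCG-treated mice, cumulus cells of unprimed mice, mural granulosa cells of eCG-treated mice and mural granulosa cells of unprimed mice, with 3 arrays each. A cumulus sample pooled the cells of 200 complexes of oocyte and cumulus, and a replicate pooled 5 mice, so that differences between single animals or follicles are not seen.

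Granulosa cells are the somatic cells of the ovarian follicle. Mural granulosa cells line the follicle wall, and cumulus cells enclose the oocyte. eCG acts in mice mainly like follicle-stimulating hormone, whose receptor signals through cyclic AMP and protein kinase A, and under it follicles grow toward the preovulatory stage, granulosa cells divide and make estrogen, and mural cells gain receptors for luteinizing hormone. Values are relative to the other transcripts on an array, and in bulk samples fewer cells of a type and less RNA per cell cannot be told apart.

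The identifiers could not be paired with gene names, since 0 of 41115 matched the RefSeq table of assembly GRCm38.p6. The members are therefore described by their values, a few by identifier, with no gene name, role or sequence, and the labels of the cells were not checked against marker genes. The 12 arrays had median log2 values of 7.30 to 7.38, and 3 arrays per group limit the precision. Control probe sets differed between groups: the 24 for dap, lys, phe and thr, bacterial RNAs commonly added before amplification, had array means of 8.43 to 8.79 on eCG cumulus arrays against 7.59 to 7.80 on unprimed cumulus arrays, and of 7.57 to 7.75 in eCG mural cells against 7.23 to 7.84 in unprimed mural cells.

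The members were lower after eCG in both cell types by 2-fold or more, as the rule asks. The median member had a log2 change of -1.43 in cumulus cells and -1.57 in mural cells, which is 2.69-fold and 2.97-fold lower. The median change over the 25917 tested probe sets was -0.01 in cumulus and -0.02 in mural cells. The cumulus changes ran from -2.96 to -1.002, with 8 members at -2 or below. The mural changes ran from -3.60 to -1.05, with 17 members at -2 or below. These changes were the choosing criterion and are given without a test. A group mean of at least 8 was found in 11794 distinct probe sets. Of these, 122 were lower by at least 1 in cumulus cells and 227 in mural cells. The 65 thus made up 53.3% of the first list and 28.6% of the second. Among all tested rows, with identical rows counted separately and no minimum of 8, the shares lower by at least 1 were 0.868% and 1.56%.

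**Figure D1:**
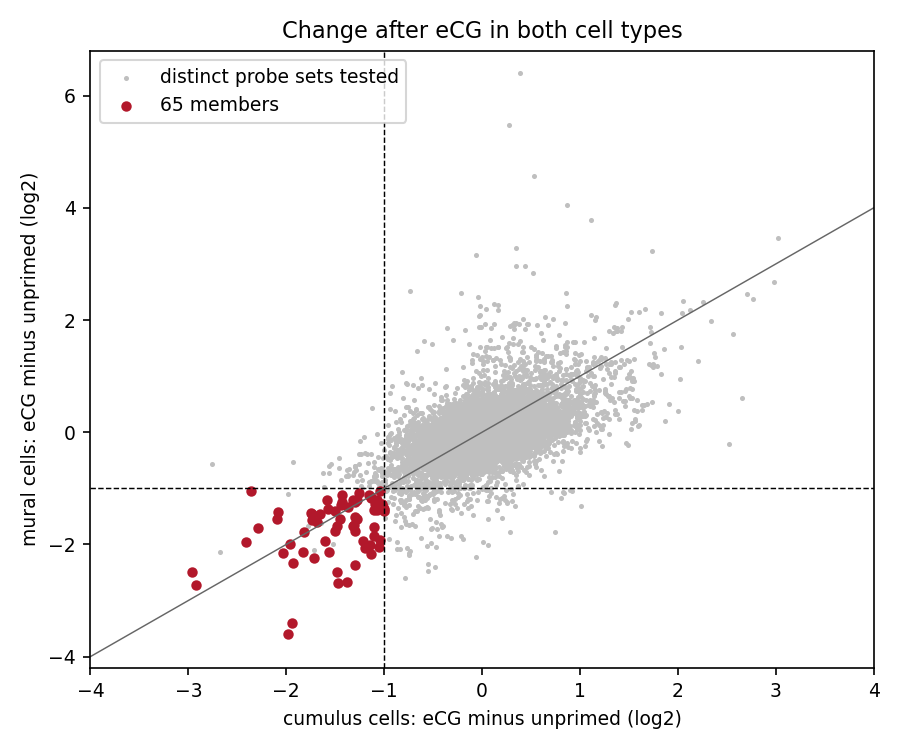
Change after eCG (eCG minus unprimed group mean, log2) in cumulus cells (x axis) against mural cells (y axis) for the distinct tested probe sets (grey) and the 65 members (red), with dashed lines at -1 and a diagonal of equal change. The members lie at or below -1 on both axes, and grey points among them had no group mean of at least 8.

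The limit of -1 cut through a continuous range. The 3 members nearest to it had cumulus changes of -1.015, -1.004 and -1.002, with mural changes of -1.33, -1.398 and -1.36. Of the 3 probe sets just beyond it, the first had changes of -1.04 in cumulus and -0.997 in mural cells. The other two had changes of -0.992 and -1.23 in cumulus cells and of -1.52 and -0.991 in mural cells.

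The eCG and unprimed arrays did not overlap in most members, whatever the width of the gap. In cumulus cells all 3 eCG arrays lay below all 3 unprimed arrays in 65 of 65 members, where 19.5% of all tested probe sets did. In mural cells this held for 61 of 65, against 17.2% of all tested probe sets, and the same 61 were separated in both cell types, against 7.52%. These counts follow from the choice of members, and the shares of all tested probe sets count identical rows separately. The 4 members whose mural groups overlapped had wide scatter in unprimed mural cells, with SDs of 0.70 to 1.26 (n = 3).

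**Figure D2:**
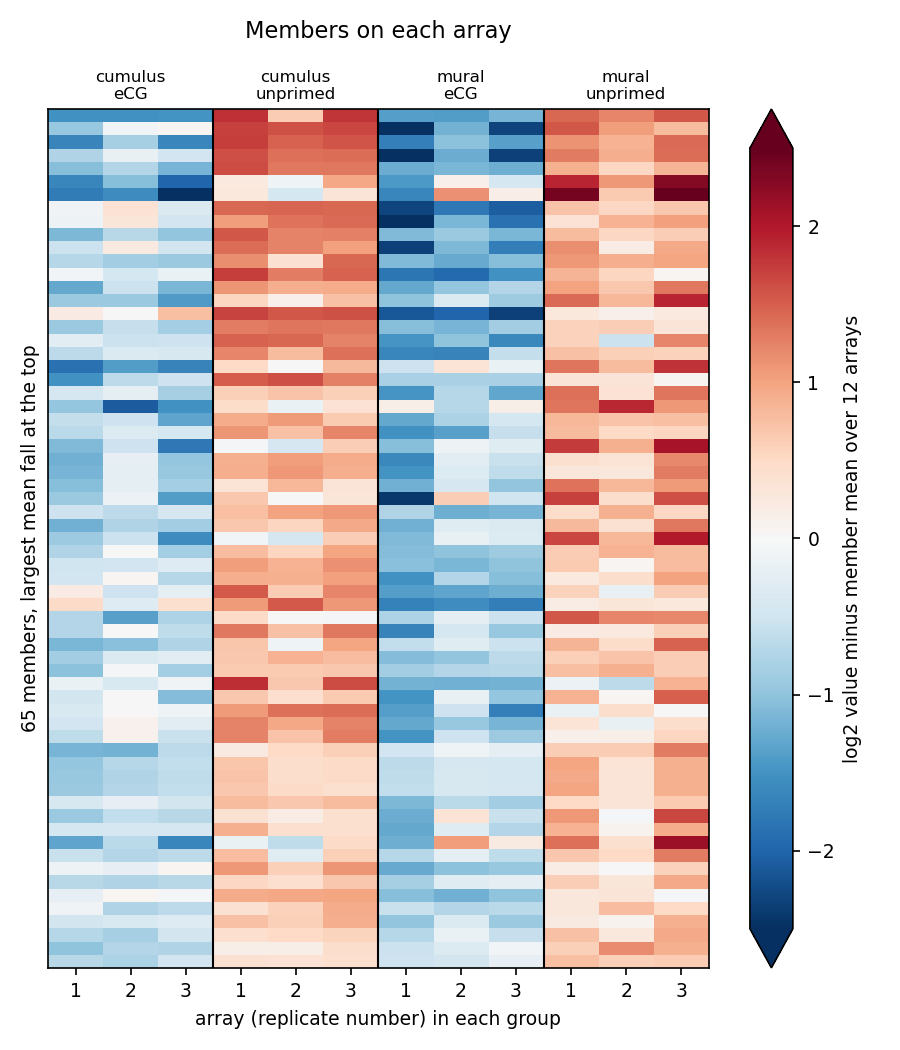
Log2 value of each of the 65 members (rows, largest mean fall at the top) on each of the 12 arrays (columns, grouped), minus the member's mean over the 12 arrays. The eCG columns are mostly blue (below the member's mean) and the unprimed columns mostly red (above it), with paler or opposite cells in both cell types.

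Members lay lower in the distribution after eCG than in unprimed mice, which the rule largely fixes by its minimum of 8 and its falls. The median member had a log2 value of 7.91 in eCG cumulus cells against 9.34 in unprimed cumulus cells, at percentiles 60 and 78.7 of all distinct probe sets. In mural cells it was 7.25 in eCG mice and 9.31 in unprimed mice, at percentiles 50.2 and 78.5. The highest member mean was 11.71 on eCG cumulus arrays against 13.43 in unprimed cumulus cells, and 10.61 in eCG mural cells and 12.42 in unprimed mural cells.

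The lowest values set a limit on the sizes. Each array's 40th percentile (6.66 to 6.73) served as the filter level for low values. After eCG, 9 members had a mean below it in cumulus cells and 19 in mural cells, 6 of these in both. In unprimed cells of either type 0 did so, a contrast that the rule favours. For these 22 members the size of the fall, and of any cell type difference in eCG mice, is not exact. In 32 members all 6 eCG arrays lay above the level, and their values were 2.01-fold to 4.24-fold lower after eCG in cumulus cells and 2.08-fold to 6.35-fold lower in mural cells. All 65 passed the filter on low values, which asks for 3 of 12 arrays above the level.

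ENSMUST00000094022 had the lowest mean of the changes in both cell types. Its log2 values were 6.40, 6.40 and 6.41 in eCG cumulus cells, against 9.73, 8.54 and 9.69 in unprimed cumulus cells. They were 6.52, 6.50 and 6.74 in eCG mural cells, against 9.35, 9.13 and 9.46 in unprimed mural cells. All eCG arrays but 1 mural one lay under the filter level, and the groups did not overlap in either cell type. The changes were -2.92 in cumulus and -2.72 in mural cells, and these sizes are not exact because the treated values were at the bottom of the usable range. Its cell types were alike in level: cumulus minus mural, averaged over eCG and unprimed mice, was -0.09 ± 0.17 (SE, limma adjusted p = 0.69).

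ENSMUST00000026084, identical in value to 1 other transcript, was the second by mean change. Its log2 values were 8.76, 9.65 and 9.75 in eCG cumulus cells, against 11.43, 11.29 and 11.38 in unprimed cumulus cells. They were 5.80, 8.53 and 7.39 in eCG mural cells, against 11.27, 10.74 and 10.49 in unprimed mural cells. The unprimed cumulus arrays were close together (SD 0.07), the unprimed mural arrays less so (SD 0.40), and the eCG mural arrays spread widely (SD 1.37). The eCG and unprimed groups did not overlap in either cell type. The changes were -1.98 in cumulus and -3.60 in mural cells. Replicate 1 of the eCG mural arrays lay under the filter level. Without it the mural change was -2.87 (7.33-fold lower), so that part of the size of this fall rests on 1 array. With all arrays it was the lowest mural change of the 65, and without that array another member was lower, at -2.99.

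The fall was larger in mural cells for 40 members and larger in cumulus cells for 25. The cumulus change minus the mural change had a median of 0.18 and ran from -1.31 to 1.62, and in 45 members the changes lay within 0.5 of each other. In 7 members the mural fall exceeded the cumulus fall by at least 1, and in 1 the cumulus fall exceeded the mural fall by that much. Since both changes had been used to choose the members, this difference was not tested.

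The level in cumulus against mural cells, averaged over eCG and unprimed mice, was tested. It entered the choice only through the minimum level. That minimum of 8 applied to the highest of the 4 group means, so a member could enter through 1 cell type alone. This can favour a cell type difference, and its part in the calls was not tested. Of the members named below, ENSMUST00000020704 reached 8 in both cell types. ENSMUST00000039113 did so only in cumulus cells (unprimed means 8.17 in cumulus and 7.19 in mural cells). ENSMUST00000017743 (7.20 and 9.20) and ENSMUST00000026036 (6.97 and 8.385) did so only in mural cells. Of the 65 members, limma called 39: 27 higher and 12 lower in cumulus than in mural cells (Benjamini-Hochberg adjusted p under 0.05 over 25917 probe sets). Among all tested probe sets 26.7% were called higher and 22.1% lower, against 41.5% and 18.5% of the members. The 25917 include rows with identical values (16809 are distinct), whereas members were counted once. The share lower in cumulus cells was thus near that of all probe sets. The median difference was 0.16 over the members and 0.03 over all tested probe sets. Among the 27 higher in cumulus cells it ran from 0.39 to 1.93 with a median of 0.90, and 8 were higher by at least 1. Among the 12 lower it ran from -1.95 to -0.27 with a median of -1.02, and 6 were lower by at least 1. For the 26 that were not called, differences lay between -0.49 and 0.36.

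The added controls were also higher in cumulus than in mural arrays, by a median of 0.56 on this average (all 24 called by limma over 64 control probe sets). With their mean as a covariate, 11 members were called higher and 2 lower, or 16.9% and 3.08% of the members, against 6.74% and 9.15% of all tested probe sets in that fit. The control means of the eCG cumulus arrays, 8.43 to 8.79, all lay above the highest mean elsewhere, 7.84 on an unprimed mural array. The covariate is thus largely tied to 1 group, and a call lost in this fit does not show that a difference is absent. The part of the controls in the counts was not tested beyond this fit.

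The cell type differences of the called members are given by stage as a description, since a call on the average of both stages largely fixes a shared sign. The sign was the same at both stages in 98.0% of all probe sets called higher and 96.9% of those called lower. In 26 of the 27 members higher in cumulus cells the difference was positive in eCG mice and in unprimed mice, with medians of 0.92 in eCG mice and 0.77 in unprimed mice. In all 12 members lower in cumulus cells it was negative at both stages, with medians of -0.68 in eCG mice and -1.197 in unprimed mice. The differences of the 27 were larger after eCG in 17 members, and those of the 12 were nearer to 0 after eCG in 9 members. By arithmetic these 17 and 9 are the members of each set with the larger fall in mural cells.

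**Figure D3:**
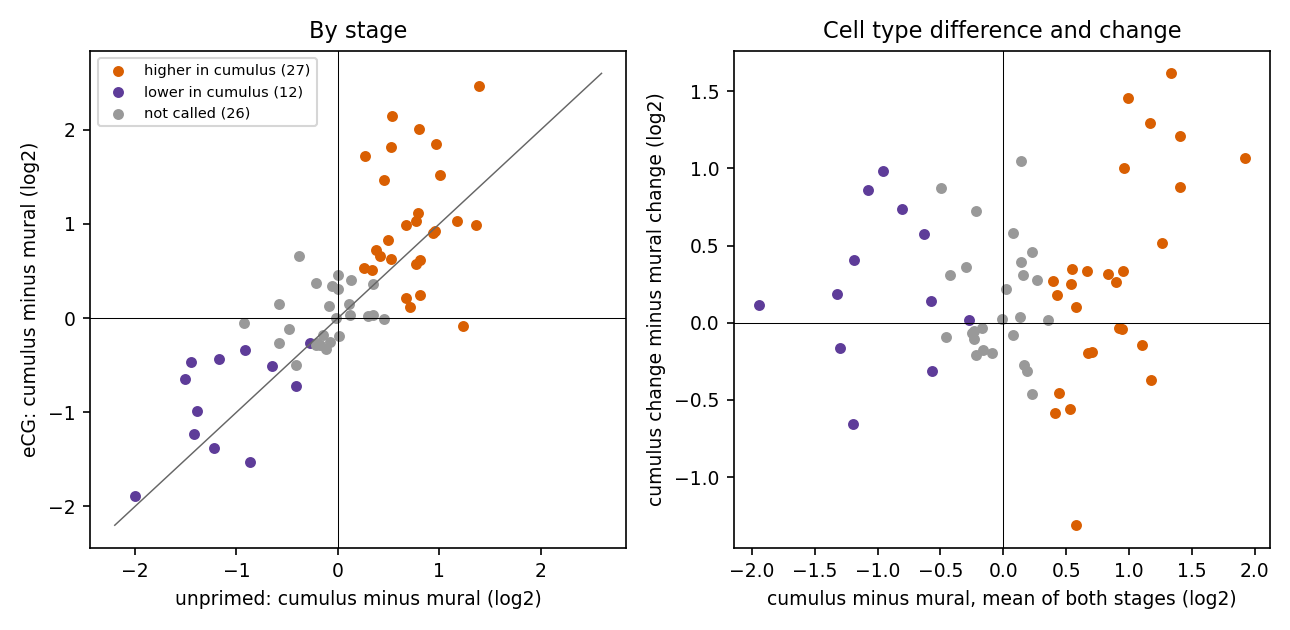
Left, cumulus minus mural difference (log2) of each member in eCG mice (y axis) against unprimed mice (x axis), with a diagonal of equal difference. Right, the difference averaged over both stages (x axis) against the cumulus change minus the mural change after eCG (y axis). Orange marks the 27 members called higher in cumulus cells, purple the 12 called lower and grey the 26 not called, and 26 of the orange and all purple points have the same sign at both stages.

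ENSMUST00000020704 had the highest excess in cumulus cells. Its log2 values were 9.18, 8.96 and 9.72 in eCG cumulus cells, against 10.65, 10.53 and 10.57 in unprimed cumulus cells. In mural cells they were 6.86, 6.98 and 6.64 in eCG mice, against 9.24, 9.10 and 9.22 in unprimed mice. Cumulus and mural arrays of the same stage did not overlap at either stage, and the eCG mural values lay close to the filter level. The averaged cell type difference was 1.93 ± 0.11 (SE, limma adjusted p = 1.63e-07), made up of 2.46 in eCG mice and 1.39 in unprimed mice. With the added controls as covariate it was 2.31 (limma adjusted p = 8.53e-05).

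ENSMUST00000039113, identical in value to 1 other transcript, was next. Its values were 7.41, 6.62 and 7.35 in eCG cumulus cells, against 8.01, 8.47 and 8.02 in unprimed cumulus cells. Mural values were 5.25, 5.38 and 5.203 in eCG mice, against 7.14, 7.25 and 7.197 in unprimed mice. Mural arrays varied little within a group, lay below the cumulus arrays of their stage, and in eCG mice lay under the filter level. The averaged difference was 1.41 ± 0.13 (SE, limma adjusted p = 5.27e-06), a size that is not exact because of the low mural values. With the added controls as covariate it was 1.697 (limma adjusted p = 0.00216).

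ENSMUST00000017743 had the lowest averaged difference, that is, an excess in mural cells. Its values were 5.40, 5.58 and 4.50 in eCG cumulus cells, against 7.41, 6.72 and 7.47 in unprimed cumulus cells. In mural cells they were 5.53, 8.30 and 7.32 in eCG mice, against 9.55, 7.81 and 10.25 in unprimed mice. The mural groups overlapped, with eCG replicate 2 above unprimed replicate 2, and eCG replicate 1 lay at the level of the eCG cumulus arrays. The averaged difference was -1.95 ± 0.47 (SE, limma adjusted p = 0.00418), and with the added controls as covariate it was -0.99 (limma adjusted p = 0.523). All 3 eCG cumulus values lay under the filter level, so the size and its rank are not exact.

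ENSMUST00000026036 followed, also with an excess in mural cells. Its values were 5.77, 6.40 and 5.45 in eCG cumulus cells, against 6.91, 6.44 and 7.56 in unprimed cumulus cells. Mural values were 5.86, 8.13 and 7.32 in eCG mice, against 8.45, 7.48 and 9.22 in unprimed mice. Again eCG mural replicate 2 exceeded unprimed mural replicate 2, while the cumulus groups were separated by a narrow gap. The averaged difference was -1.32 ± 0.38 (SE, limma adjusted p = 0.0113), and with the added controls as covariate it was -0.75 (limma adjusted p = 0.562). Its size is not exact either, since the 3 eCG cumulus values lay under the filter level. Unprimed cumulus replicate 2 and eCG mural replicate 1 also lay under it, so the narrow cumulus gap is among low values.

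**Figure D4:**
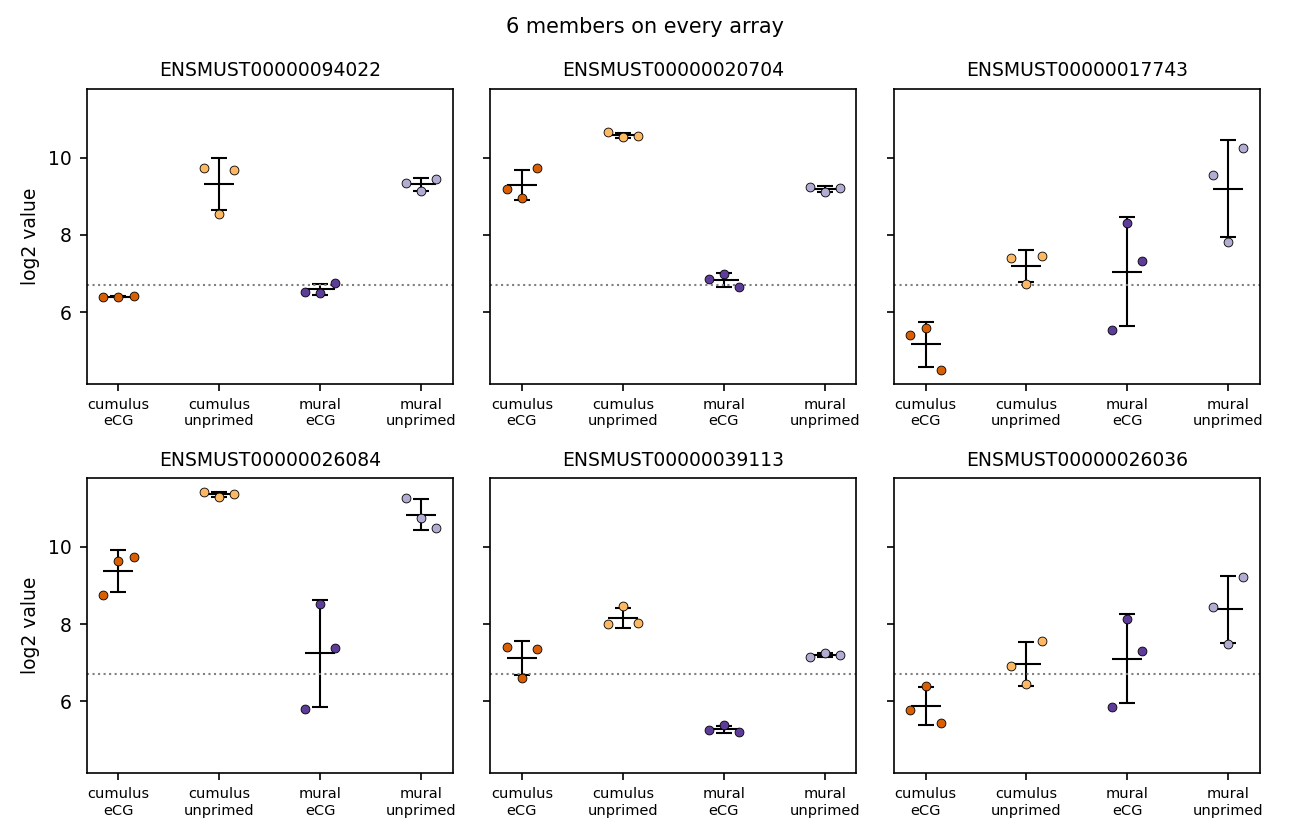
Log2 values of 6 members on the 3 arrays of each group (points), with group mean and SD (bars) and the mean filter level (dotted line). Left column, the 2 members with the lowest mean change; middle, the 2 with the highest averaged cumulus minus mural difference; right, the 2 with the lowest, whose mural groups overlap.

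The members varied between replicates more than other probe sets. The rule used group means without regard to scatter, which can favour probe sets that vary widely. The comparison sets were not chosen by a fall or matched for level, so the larger scatter is given as a description. The median SD within a group was 0.29 for members against 0.15 for all distinct tested probe sets in eCG cumulus cells, and 0.19 against 0.10 in unprimed cumulus cells. In eCG mural cells it was 0.29 against 0.13, and in unprimed mural cells 0.34 against 0.15. The 12 members lower in cumulus cells had larger SDs than the 27 higher in cumulus cells, in all 4 groups. In cumulus cells the median SD was 0.41 for the 12 against 0.22 for the 27 in eCG mice, and 0.36 against 0.18 in unprimed mice. In mural cells it was 0.46 against 0.23 in eCG mice, and 0.52 against 0.24 in unprimed mice.

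This variation was partly shared. Over the 2080 pairs of members, deviations from the group means had a median correlation of 0.34 over the 12 arrays, and 72.1% of pairs were above 0. Over all pairs of the 16809 distinct tested probe sets the median was 0.02, with 51.8% above 0. Among the members 9 pairs, formed by 15 members, correlated above 0.99 over the arrays, group differences included. Such members may be transcripts of one gene, so the number of genes behind the 65 is not known.

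The deviations had one direction in most members on some arrays. In eCG mural cells replicate 1 held the lowest of the 3 values in 48 members (73.8%, against 26.7% of all distinct tested probe sets), with a median deviation of -0.23 from the group mean. In unprimed mural cells replicate 2 was lowest in 44 members (67.7%, against 30.5%), with a median deviation of -0.26. In unprimed cumulus cells replicate 2 was lowest in 42 (64.6%, against 31.4%), but its median deviation was only -0.11. In eCG cumulus cells replicate 1 was lowest in 32 (49.2%, against 36.6%). Without unprimed mural replicate 2 the rule found 78 members, the 65 among them, and without unprimed mural replicate 3 it found 59, of which 57 were among the 65.

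**Figure D5:**
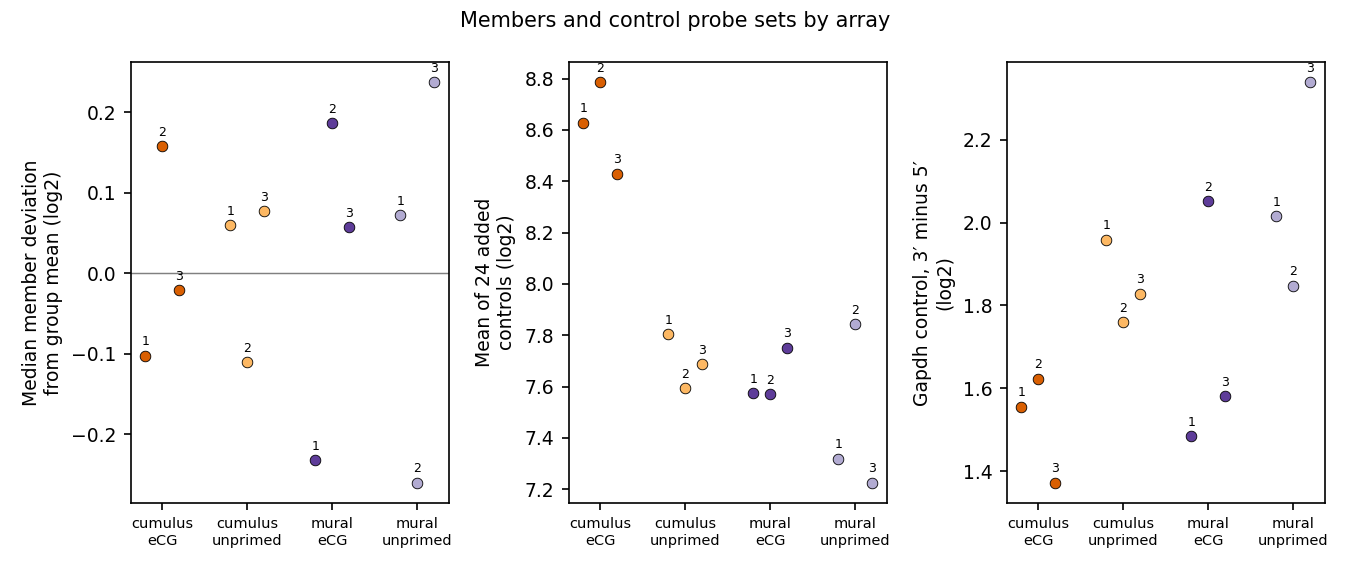
Left, median deviation of the 65 members from their group mean (log2) on each array, numbered by replicate. Middle, mean log2 value of the 24 added control probe sets. Right, Gapdh control probe sets, 3′ minus 5′ value (log2). eCG mural replicate 1 and unprimed mural replicate 2 have the lowest member deviations, and the added controls are highest on the 3 eCG cumulus arrays.

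Control values moved with the stimulation contrast in cumulus cells. The added controls were higher in eCG than in unprimed cumulus arrays by a median of 0.92 (23 of 24 called by limma over 64 control probe sets), and by 0.15 in eCG than in unprimed mural arrays (0 of 24 called by limma, 0 also at an unadjusted p under 0.05, range 0.04 to 0.37). With their mean as a covariate the members' median change was -1.08 in cumulus cells and -1.57 in mural cells. In that fit 33 members kept a cumulus change of -1 or below and 64 a change below 0, while 62 kept a mural change of -1 or below. The median standard error of the cumulus changes was then 2.21 times that of the fit without the covariate. The difference between the 3′ and 5′ Gapdh control probe sets, a sign of RNA integrity and amplification length, was 1.37 to 1.62 in eCG cumulus cells and 1.76 to 1.96 in unprimed cumulus cells. In mural cells it was 1.48 to 2.05 in eCG mice and 1.85 to 2.34 in unprimed mice. The same difference for the beta-actin controls was 0.87 to 1.17 in eCG cumulus cells and 0.75 to 1.01 in unprimed cumulus cells, which is the opposite order to Gapdh. In mural cells it was 0.75 to 0.83 in eCG mice and 0.74 to 0.88 in unprimed mice. The part of RNA integrity in the falls was not tested.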

How the data were processed

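The values of the 12 arrays are on a log2 scale as deposited by the authors, and come from RMA (affy package) per the submitters' processing notes. RMA quantile-normalizes arrays, which removes a change that most transcripts share. The array model, tool versions and genome build are unstated (not given in the sources used here). RNA (20 ng per sample, per the labels' protocols) went through repeated amplification, which favours 3′ ends.

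Of 41115 transcript probe sets (64 controls apart), 25917 lay above their array's 40th percentile on at least 3 arrays and were tested. Shares of all tested probe sets count each of these rows, identical ones included, while members were counted once. A mean per group was fitted to all arrays with limma 3.58.1 (R 4.3.3, lmFit and eBayes), with Benjamini-Hochberg adjustment and a threshold of 0.05. The cell type contrast averaged both stages, which makes it orthogonal to the changes that chose the members, but not independent of the minimum level. The labels call the samples biological replicates. In simulated data 200 of 25917 probe sets were changed in this contrast. At a log2 difference of 0.5, 73.5% were recovered with 4 false calls, and at 1, 96.5% with 7. The changed sets were drawn from all tested probe sets, with independent noise on each array and no stage effect. Recovery among the members, which varied more and partly shared their deviations, was not simulated and may be lower. Members and lists were chosen with earlier results of these data known. Members named by identifier are the 2 lowest by mean change and the 2 highest and 2 lowest called cell type differences. The planned gene lists, cell type markers and further naming rules need gene names and were not run. Other scalings, filters, models, rule limits, covariates and left-out arrays were tried. Figures used matplotlib 3.10.9 in Python 3.11.15.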

Additional observations from a re-analysis of the deposited data

Results flagged for a closer look

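Control probe sets for the added bacterial RNAs dap, lys, phe and thr, outside the comparisons of mouse transcripts, were higher in eCG than in unprimed cumulus arrays by a median of 0.92 on the log2 scale.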

How the results depend on the processing

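The rule found 43 members with a highest group mean of at least 9, 121 with falls of at least 0.8 and 18 with falls of at least 1.5, as stricter and looser limits must. Leaving out 1 array gave 59 to 78 members, with 57 to 65 of the 65 among them. Without eCG cumulus replicate 3, for example, the rule found 65, of which 59 were among the 65. Group medians in place of means gave 63, of which 54 were among the 65. With 1 array left out, 27 to 28 of the 65 were called higher and 12 to 17 lower in cumulus cells, the last 17 without unprimed mural replicate 2. With the added controls as covariate 59 probe sets met the rule, 33 of them among the 65. In that fit 11 members were called higher and 2 lower, and ENSMUST00000017743 (-0.99, limma adjusted p = 0.523) and ENSMUST00000026036 (-0.75, adjusted p = 0.562) were not called; the cause was not tested. In unprimed mice alone 16 members were called higher and 9 lower, and in eCG mice alone 22 higher and 5 lower. These were contrasts of the same fit to all 12 arrays, each resting on fewer arrays than the average of both stages. ENSMUST00000026036 was -1.42 in unprimed mice alone (adjusted p = 0.0757) and -1.23 in eCG mice alone (adjusted p = 0.0813). With 1 array left out the differences were 1.82 to 2.01 for ENSMUST00000020704, 1.34 to 1.54 for ENSMUST00000039113, -2.33 to -1.64 for ENSMUST00000017743 and -1.63 to -1.06 for ENSMUST00000026036, all called by limma. The mural change of ENSMUST00000026084 was -2.87 without eCG mural replicate 1, a setting chosen after seeing the data. Apart from the covariate and the single stages, the other scalings, filters and models gave 27 to 30 called higher and 12 to 15 called lower. With the replicate number as a block 28 were called higher and 13 lower. That block joined eCG and unprimed arrays of one number, so it is no test of pairing of cell types within a stage. Deviations of cumulus and mural arrays of one number correlated at 0.19, 0.14 and -0.13 in eCG mice. In unprimed mice the correlations were 0.11, 0.32 and 0.42. These values do not settle whether arrays of one number are pairs, and the main fit took them as unpaired. Values near the filter level limit the size of the falls.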
